A study of Mus musculus with 9 samples.

Results

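The Z-disc is the protein lattice that crosslinks the thin filaments of neighbouring sarcomeres, the contractile units of striated muscle. Alpha-actinin dimers form its core, the titin cap, myozenins, myotilin and PDZ-LIM proteins attach to them, and desmin, the intermediate filament of muscle cells, ties the Z-discs of adjacent myofibrils to each other and to the membrane. Myoblasts hold little of this machinery and assemble it as they fuse into myotubes. The 10 genes described here, Actn2, Actn3, Tcap, Myoz1, Myoz2, Myot, Ldb3, Pdlim3, Csrp3 and Des, were taken by symbol from the 47729 genes of the count table. All 10 had an entry, and 9 passed the filter for testing. Myot did not.

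RNA was sequenced from C2C12, an established mouse myoblast line that fuses into myotubes after growth serum is replaced with horse serum. All 3 populations had gone through CRISPR-Cas9. WT received a guide RNA with no target in the genome, Per1KO a knockout of the clock repressor gene Per1, and Per2KO a knockout of the clock repressor gene Per2. Each was sampled undifferentiated on day 0 and after differentiation was induced, on days 3 and 5, with 1 library per population and day and 9 in all. The labels give the tissue as whole muscle although the culture protocol is that of the cell line, and whether a knockout population is 1 clone is not stated.

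The 3 WT libraries held 5020385 to 6773320 counts and the 6 from the knockouts 41997763 to 48051824, a 7.82-fold difference of the means, and only the WT titles carry a lane suffix. Depth or lane and genotype therefore cannot be told apart. Levels are given as CPM, read counts scaled to depth with TMM factors (trimmed mean of M values). A gene with no reads may still have had up to 3 counts, equal to 0.423 to 0.659 CPM in WT and 0.0590 to 0.0730 CPM in the knockouts. Among the targeted genes, Per1 lay at 30.96 to 35.5 CPM in WT, 20.8 to 32.4 in Per1KO and 16.4 to 32.9 in Per2KO, and Per2 at 9.73 to 20.4 CPM in WT, 6.58 to 10.6 in Per1KO and 3.50 to 9.11 in Per2KO. Per1 in Per1KO was not called different from WT (adjusted p = 0.310), Per2 in Per2KO was called lower (adjusted p = 0.0230), and transcript counts do not show whether an edit disrupts the reading frame. Of 7 myotube markers all exceeded 1 CPM, with sums on days 0, 3 and 5 of 1450, 17265 and 18686 CPM in WT, 882, 7661 and 11943 in Per1KO, and 834, 7053 and 9478 in Per2KO. The summed markers of endothelial cells reached at most 1.10 CPM in any library, those of macrophages and leukocytes 2.85 with Adgre1 at 0 throughout, those of adipocytes 0.878 with Adipoq, Cidec and Lep at 0 throughout, and those of Schwann cells 3.46. Markers of fibroblasts summed to 162 to 1314 CPM, those of smooth muscle, which also makes desmin, to 691 to 4358, and those of cardiomyocytes to 0.413 to 33.2.

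Nearly the whole set rose during differentiation. Of the 9 members tested, 8 were higher on day 3 than on day 0 and the same 8 were higher on day 5, and Pdlim3 passed the threshold on neither day. Tcap and Myoz1 reached 1 CPM in no day 0 library, and Actn2, Myoz2 and Csrp3 on day 0 in WT alone. These members passed the filter through days 3 and 5, where they are high. The filter therefore favoured a rise, and the counts of members are a description. In the additive edgeR quasi-likelihood fit of genotype and day, 18.1% of all tested genes were called higher on day 3 and 23.2% on day 5. The median log2 fold change of the 9 was 2.61 on day 3 and 3.41 on day 5, against -0.01 for all tested genes on both days. Without the WT libraries both counts were again 8. The shares of 18.1% and 23.2% belong to the fit of all 9 libraries and not to these fits. With no share of all genes from the same fits beside them, the counts without WT do not show that the calls are stable. The range of calls over all genes with 1 population left out is given in the last section. Between days 3 and 5, Csrp3 and Tcap were called higher, where 0.698% of all genes were. Both of these calls were lost without Per1KO and again without Per2KO, fits in which edgeR called 0 genes of any kind, with 754 and 988 at an unadjusted p under 0.05. Without WT 6 members were called, and the calls over all genes went from 238 to 1393.

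In both knockout populations the members lay lower than in WT or did not pass the threshold. The test called 6 of 9 lower in Per1KO (Actn2, Actn3, Tcap, Myoz2, Pdlim3 and Csrp3), where 10.1% of all tested genes were called lower and 9.26% higher. In Per2KO 7 were called lower, the same 6 and Myoz1, where 10.6% of all genes were called lower and 9.31% higher. Myoz1 reached 1 CPM only in WT on days 3 and 5 and in Per1KO on day 5. No Per2KO library helped Myoz1 to pass the filter, so its lower call there is a description. Over the 9 the median log2 fold change was -1.18 in Per1KO and -1.92 in Per2KO, against -0.02 and -0.01 for all tested genes. The 2 comparisons share the WT libraries. Without day 3 the calls fell to 1 in Per1KO and 2 in Per2KO, and without day 5 to 2 and 3. Over all genes the calls went from 2575 in Per1KO to 989 without day 3 and 780 without day 5, and from 2652 in Per2KO to 901 and 855. Csrp3 was called in both knockouts in each of these fits. In bulk RNA, fewer myotubes in a culture and less RNA per myotube cannot be told apart, and the summed myotube markers were also lower in every knockout library than in the WT library of its day. Their part in the members' levels was not tested.

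**Figure D1:**
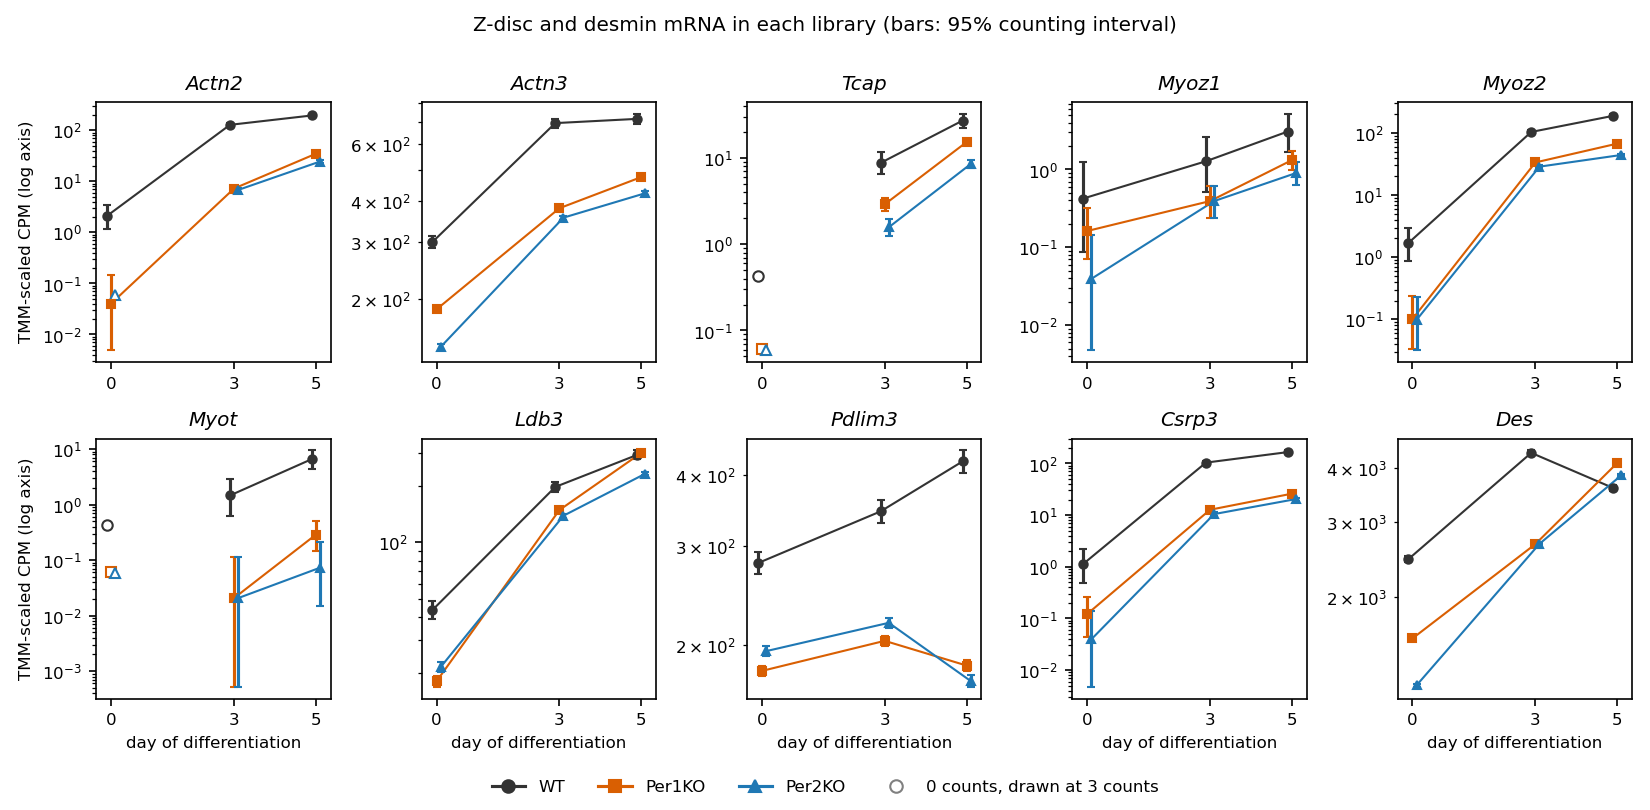
TMM-scaled CPM (log axis, a separate range for each gene) of the 10 genes against day of differentiation, 1 point per library with its 95% Clopper-Pearson counting interval; open symbols mark libraries with 0 counts, drawn at the value of 3 counts. Among the 9 tested genes Actn2 and Csrp3 lie furthest apart between WT and the knockouts, the 3 lines of Des and of Ldb3 converge on day 5, and Pdlim3 alone shows no common rise.

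Actn2 encodes the alpha-actinin of all striated muscle and lies on chromosome 13, at 12269426 to 12340760 on the minus strand of GRCm38. WT held 2.12 CPM (95% counting interval 1.18 to 3.49), 128 and 196 on days 0, 3 and 5. Per1KO gave 0.0405, 7.26 and 34.9 CPM on the same days, and Per2KO gave 0, 6.80 and 24.6 CPM. Every knockout library was far below the WT library of its day, and even the day 5 knockout libraries stayed below WT on day 3. WT exceeded Per1KO 17.7-fold on day 3 (95% counting interval 15.6 to 20.2) and 5.61-fold on day 5 (5.16 to 6.11). Per2KO was exceeded 18.9-fold (16.5 to 21.6) and 7.98-fold (7.29 to 8.74). On day 0 the ratio to Per1KO was 52.2 with an interval of 12.1 to 471, since Per1KO held 2 counts. Against the 3 counts that the 0 of Per2KO allows, WT was 35.9-fold higher (95% lower limit of the ratio 25.7). The ratios on day 5 lay below those on day 3 with intervals that do not overlap, whereas the day 0 interval for Per1KO covers that of day 3. Across all 3 days Per1KO was at -3.52 ± 0.49 (log2 fold change against WT ± SE, adjusted p = 0.00271) and Per2KO at -3.88 ± 0.50 (adjusted p = 0.00187). Both calls were lost without day 3 (adjusted p = 0.0832 and 0.0663). From day 0 to day 5 Actn2 rose 92.7-fold in WT (55.9 to 166) and 862-fold in Per1KO (238 to 7127, from 2 counts). In Per2KO it rose 417-fold against the 3 counts that its day 0 value of 0 allows (95% lower limit 338).

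The bases upstream of Actn2 are shown for their E-boxes, the CANNTG sequences bound by MyoD-family factors. The CACGTG form is the canonical E-box of the CLOCK-BMAL1 activator that the PER proteins repress. The stretch runs from 250 to 31 bases before the RefSeq start, at chr13:12340763-12340982 on the minus strand of GRCm38.p6, with E-boxes in capitals.
Actn2: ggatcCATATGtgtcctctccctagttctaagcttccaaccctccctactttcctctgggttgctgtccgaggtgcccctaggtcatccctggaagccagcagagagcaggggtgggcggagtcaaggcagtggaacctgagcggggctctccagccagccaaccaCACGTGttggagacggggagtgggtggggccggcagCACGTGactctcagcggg
It holds CATATG at 245 bases before the start and CACGTG at 84 and at 48. Of 32851 mouse promoters searched over the same 220 bases on both strands, 62.1% held a CANNTG, 5.01% held CACGTG (which CANNTG includes) and 0.310% held CACGTG at least 2 times. A match describes letters and no binding was measured here.

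Actn3, the alpha-actinin of fast glycolytic fibres, was the more abundant sarcomeric form in every library. It lies on chromosome 19, at 4861216 to 4877909 on the minus strand. WT libraries held 299.8, 695 and 716 CPM on days 0, 3 and 5. Per1KO held 186, 381 and 475 CPM and Per2KO 143, 356 and 424 CPM. WT was highest on each day and Per2KO lowest, and all 3 populations rose. Against WT, Per1KO was at -0.72 ± 0.12 on the log2 scale (adjusted p = 0.00606) and Per2KO at -0.93 ± 0.12 (adjusted p = 0.00181). The Per1KO call was lost without day 3 (adjusted p = 0.0832) and without day 5 (0.0628). Actn3 was higher on day 5 than on day 0 by 1.39 ± 0.12 on the log2 scale (adjusted p = 9.80e-05). Actn2 and Actn3 share 2.06% and 1.02% of the 31-base words of their longest transcripts with other genes, chiefly each other.

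The balance between Actn2 and Actn3 differed between the populations as well. Per kilobase of transcript, Actn2 made up 7.80% of the 4 alpha-actinin mRNAs in WT on day 3 and 12.3% on day 5. Its share was 0.499% and 2.11% in Per1KO, and 0.480% and 1.53% in Per2KO. The ratio of Actn3 to Actn2 per kilobase was 3.81 in WT on day 5, 14.2 in Per1KO and 17.999 in Per2KO. The other alpha-actinins, Actn1 and Actn4, belong to stress fibres and adhesions and are made in most cells. Neither was called different from WT in either knockout over the 3 days (log2 fold changes of 0.27 to 0.44, adjusted p of 0.151 to 0.285). On day 5, however, Actn4 stood at 122 CPM per kilobase in WT, 222 in Per1KO and 230 in Per2KO. Actn1 stood at 93.7, 152 and 149. On day 0 WT was the highest in both, at 180, 171 and 174 for Actn4 and 159, 149 and 154 for Actn1. Both genes enter the total from which the Actn2 shares were taken.

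**Figure D2:**
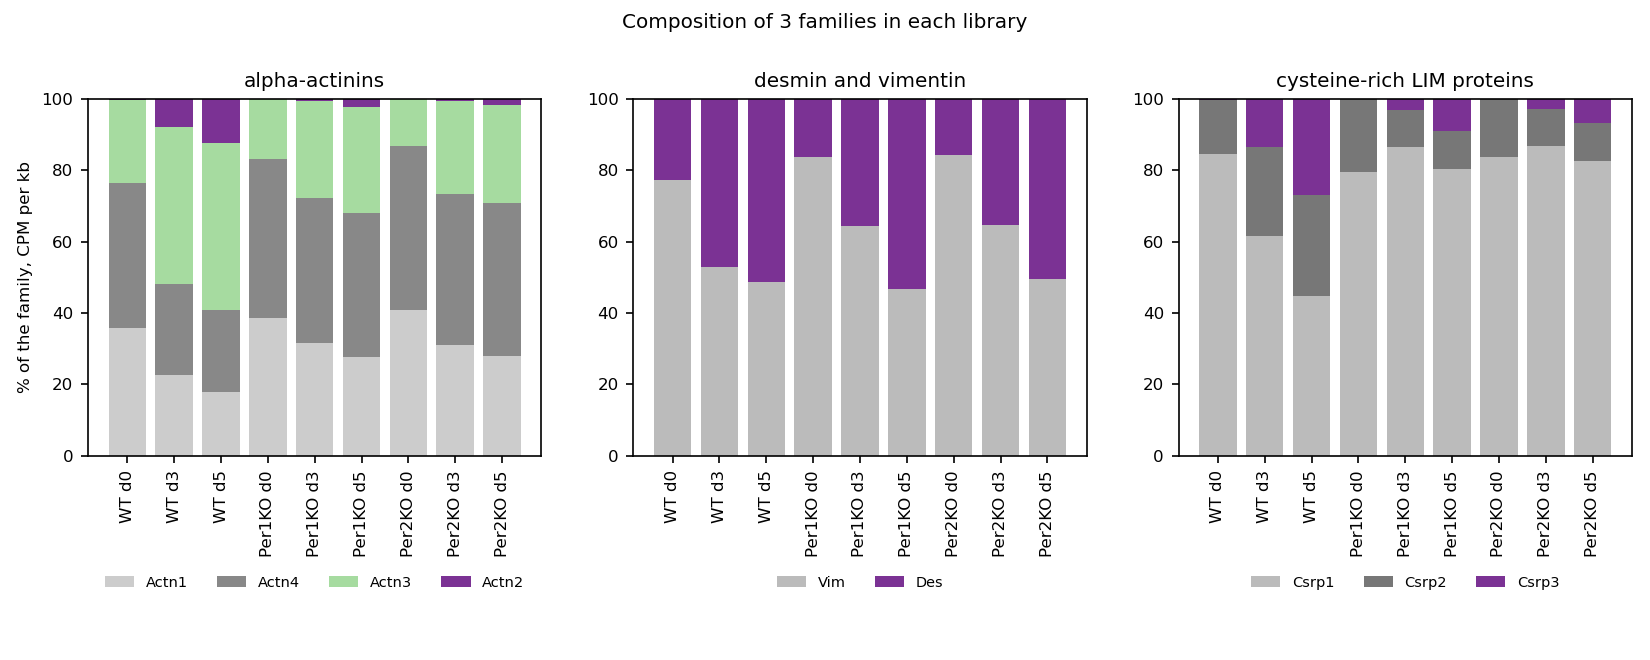
Share of each gene in the summed CPM per kilobase of its family (percent, stacked to 100, 1 bar per library) for the alpha-actinins, desmin with vimentin, and the Csrp genes. Actn2 and Csrp3 take a visibly larger share in WT on days 3 and 5 than in either knockout, and the desmin share differs little between populations on day 5.

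Tcap encodes telethonin, the cap on the Z-disc end of titin, on chromosome 11 at 98383811 to 98384953 on the plus strand. It had 0 counts in all 3 day 0 libraries. WT reached 8.74 and 27.0 CPM on days 3 and 5. Per1KO reached 2.89 and 15.3 CPM and Per2KO 1.57 and 8.49 CPM. The order on both days was WT, then Per1KO, then Per2KO, with counting intervals that do not overlap. Measured against the 3 counts that a 0 allows, Tcap was 63.8-fold higher on day 5 than on day 0 in WT. The same ratio was 251 in Per1KO and 144 in Per2KO, and all 3 follow the depth of the day 0 library. The 95% lower limits of these ratios were 51.1, 204 and 116. Between days 3 and 5 it rose by 2.18 ± 0.23 on the log2 scale (adjusted p = 0.0123), a call that was lost without Per1KO (0.211) and without Per2KO (0.138). The fitted difference from WT on the log2 scale was -1.18 ± 0.28 for Per1KO (adjusted p = 0.0360) and -2.03 ± 0.29 for Per2KO (adjusted p = 0.00613). The Per1KO call was lost without day 3 (adjusted p = 0.242), without day 5 (0.216) and in the 6 libraries of Per1KO and WT alone (0.0736). The Per2KO call was lost without day 3 (0.111) and without day 5 (0.104).

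Myozenins bind alpha-actinin and calcineurin at the Z-disc. Myoz2, the form of slow and cardiac muscle, carried 96.2% to 97.8% of the family's transcripts per kilobase on days 3 and 5. It lies on chromosome 3, at 123006206 to 123035015 on the minus strand. WT held 1.69, 103 and 187 CPM on days 0, 3 and 5. Per1KO held 0.101, 33.3 and 67.0 CPM, and Per2KO 0.0983, 28.5 and 44.0 CPM. WT led on every day, and the knockouts were close to each other on days 0 and 3. WT exceeded Per1KO 16.7-fold on day 0 (5.48 to 60.6, on 5 knockout counts), 3.09-fold on day 3 (2.80 to 3.40) and 2.80-fold on day 5 (2.59 to 3.02). The same ratios to Per2KO were 17.2 (5.65 to 62.4, on 5 counts), 3.61 and 4.26. Over all days the fitted log2 difference was -1.76 ± 0.31 for Per1KO (adjusted p = 0.00695) and -2.15 ± 0.31 for Per2KO (adjusted p = 0.00298). These calls were lost without day 3 (adjusted p = 0.0925 and 0.0660) and without day 5 (0.0808 and 0.0621).

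Myoz2 was also the member whose response to differentiation differed between knockouts and WT. Its rise from day 0 to days 3 and 5 was larger in the knockouts by 2.28 ± 0.48 on the log2 scale (edgeR interaction, adjusted p = 0.0437), where 4.95% of all genes were called. The call did not hold without Per1KO (adjusted p = 0.148), without Per2KO (0.115) or without day 3 (0.0668), nor with a separate term for each knockout (0.574 and 0.570). It rests on day 0 libraries with 12 counts in WT and 5 in each knockout. Of the 7 myotube markers 6 (Myog, Mymk, Mymx, Ckm, Acta1 and Myh3) were called in the same direction in this term, with a median of 3.81 over the 7, and their part in the Myoz2 value was not tested. The same term was 0.82 ± 0.26 for Ldb3 (adjusted p = 0.117) and 3.00 ± 1.62 for Actn2 (adjusted p = 0.316), and for the other 5 members with an estimate it lay between -0.41 and 0.76, with adjusted p of 0.356 to 0.842. For Tcap, at 0 in every day 0 library, it could not be estimated.

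Myoz1, the myozenin of fast fibres, was scarce, with 2 to 55 counts per library. It lies on chromosome 14, at 20649107 to 20656540 on the minus strand. WT held 0.423, 1.28 and 3.07 CPM on days 0, 3 and 5. Per1KO held 0.162, 0.393 and 1.32 CPM and Per2KO 0.0393, 0.393 and 0.900 CPM. WT was highest each day, but only on day 3 and day 5 did the intervals of both ratios stay above 1. The ratio to Per1KO was 3.25 on day 3 (1.15 to 8.07) and 2.33 on day 5 (1.20 to 4.25). On the log2 scale Per1KO differed from WT by -1.38 ± 0.43 (adjusted p = 0.0573, not called) and Per2KO by -1.92 ± 0.44 (adjusted p = 0.0200). The Per2KO call was lost without day 3 (0.108), without day 5 (0.196) and in the 6 libraries compared (0.0702). Myoz1 was higher on day 5 than on day 0 by 3.31 ± 0.41 on the log2 scale (adjusted p = 5.39e-04). The day 3 call was lost without Per1KO (0.103), without Per2KO (0.194) and in the 6 libraries of days 0 and 3 (0.0665). Only WT on days 3 and 5 and Per1KO on day 5 reached 1 CPM. Myoz1 thus passed the filter through libraries where it is high, and its calls over time and in Per2KO are a description.

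Myot encodes myotilin, which binds alpha-actinin and filamin and crosslinks actin. All day 0 libraries had 0 counts. WT had 8 counts on day 3 and 30 on day 5, or 1.46 and 6.59 CPM. Per1KO had 1 and 12 counts (0.0207 and 0.288 CPM), and Per2KO 1 and 3 counts (0.0207 and 0.0730 CPM). The most counts came from WT on day 5, although that library was the shallowest. WT exceeded Per1KO 22.9-fold on day 5 (11.4 to 49.1) and Per2KO 90.3-fold (28.1 to 462, on 3 counts). Myot did not reach 1 CPM in 3 libraries and was not tested in the filtered fit. Without the filter on low counts it was called lower in both knockouts and higher on days 3 and 5 than on day 0. That fit, over a larger set of genes, called 2672 genes in Per1KO and 2752 in Per2KO, in either direction. Myot reached 1 CPM in WT alone, and no knockout library held more than 12 counts. Its lower calls are therefore a description and are not added to the members called.

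Ldb3 and Pdlim3 are PDZ-LIM proteins that bind alpha-actinin. Ldb3, known as ZASP or Cypher, lies on chromosome 14, at 34526603 to 34588682 on the minus strand. WT held 43.6, 197 and 293 CPM on days 0, 3 and 5. Per1KO held 18.2, 149 and 299.9 CPM and Per2KO 21.6, 139 and 232 CPM. WT was highest on days 0 and 3, and on day 5 Per1KO stood level with it. WT over Per1KO was 2.40 on day 0 (2.101 to 2.73), 1.33 on day 3 (1.25 to 1.42) and 0.976 on day 5 (0.922 to 1.03). WT over Per2KO was 2.02, 1.42 and 1.26 on the same days. The additive fit called neither knockout different, at -0.53 ± 0.22 in Per1KO (adjusted p = 0.125) and -0.63 ± 0.22 in Per2KO (adjusted p = 0.0784). DESeq2 gave 0.0325 for Per2KO. From day 0 to day 5 Ldb3 rose 6.72-fold in WT (5.93 to 7.63), 16.5-fold in Per1KO (15.4 to 17.7) and 10.8-fold in Per2KO (10.1 to 11.5).

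Pdlim3, also called ALP, was the 1 tested member without a common rise. It lies on chromosome 8, at 45885461 to 45919548 on the plus strand. WT held 279.6, 345 and 423 CPM on days 0, 3 and 5. Per1KO held 180.2, 204 and 184 CPM and Per2KO 195, 219 and 173 CPM. WT rose at each step, and both knockouts peaked on day 3 and were back near or below their day 0 level on day 5. WT over Per1KO went from 1.55 on day 0 (1.48 to 1.63) to 1.69 on day 3 and 2.30 on day 5 (2.18 to 2.42). WT over Per2KO went from 1.43 (1.36 to 1.502) to 1.57 and 2.45 (2.33 to 2.57). These ratios became larger from day 3 to day 5, whereas those of Actn2 and Ldb3 became smaller. The interaction of knockout with days 3 and 5 called none of these 3 genes, with a value of -0.41 for Pdlim3 (adjusted p = 0.356), and the difference between the genes was not tested. Over all days the fitted log2 difference was -0.88 ± 0.16 for Per1KO (adjusted p = 0.00838) and -0.83 ± 0.16 for Per2KO (adjusted p = 0.0107). Both calls were lost without day 3 (adjusted p = 0.0777 and 0.0871) and without day 5 (0.0730 and 0.106), and the Per2KO call also in the 6 libraries compared (0.0522). For day 5 against day 0 the log2 fold change was 0.16 ± 0.16 (adjusted p = 0.450), and it was -0.071 without WT.

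Pdlim3 is shown upstream as the member that did not follow the others in time. The stretch is chr8:45885237-45885456, plus strand, with E-boxes and the MCAT element (CATTCC, here on the other strand as GGAATG) in capitals.
Pdlim3: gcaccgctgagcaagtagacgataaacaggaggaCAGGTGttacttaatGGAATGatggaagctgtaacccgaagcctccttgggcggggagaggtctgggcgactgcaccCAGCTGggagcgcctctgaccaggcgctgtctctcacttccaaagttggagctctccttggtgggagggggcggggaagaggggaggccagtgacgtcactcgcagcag
It holds CAGGTG at 216 bases before the start, the MCAT element at 201 and CAGCTG at 139. CAGCTG, the form preferred by MyoD, was in 11.4% of all promoters searched, and CATTCC in 11.4%.

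Csrp3 encodes muscle LIM protein, a Z-disc and nuclear protein that promotes myogenic differentiation. It lies on chromosome 7, at 48830398 to 48848033 on the minus strand. WT held 1.13 CPM (0.487 to 2.22), 104 and 166 on days 0, 3 and 5. Per1KO gave 0.121, 12.7 and 26.0 CPM and Per2KO 0.0393, 10.5 and 20.5 CPM. As for Actn2, the knockouts on day 5 stayed well below WT on day 3. WT exceeded Per1KO 8.17-fold on day 3 (7.27 to 9.17) and 6.38-fold on day 5 (5.81 to 7.01). Per2KO was exceeded 9.91-fold (8.78 to 11.2) and 8.11-fold (7.34 to 8.95). The day 0 ratios, 9.29 (2.83 to 32.5) and 28.7 (5.73 to 277), rest on 6 and 2 knockout counts. On the log2 scale Per1KO differed from WT by -2.88 ± 0.20 (adjusted p = 8.14e-05) and Per2KO by -3.24 ± 0.20 (adjusted p = 4.96e-05). From day 0 to day 5 Csrp3 rose 147-fold in WT (74.3 to 342), 214-fold in Per1KO (98.1 to 585) and 521-fold in Per2KO (144 to 4308, from 2 counts). Between days 3 and 5 it rose by 0.89 ± 0.16 on the log2 scale (adjusted p = 0.0361), a call that was lost without Per1KO (0.603) and without Per2KO (0.236).

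The upstream bases of Csrp3 are shown because it and Actn2 had the largest fitted differences from WT among the 9 tested members. They are chr7:48848082-48848301, minus strand, with E-boxes in capitals.
Csrp3: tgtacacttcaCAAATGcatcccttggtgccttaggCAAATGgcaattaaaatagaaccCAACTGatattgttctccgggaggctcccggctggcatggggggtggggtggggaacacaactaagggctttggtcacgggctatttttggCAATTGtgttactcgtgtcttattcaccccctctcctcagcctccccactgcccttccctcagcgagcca
The stretch holds 4 E-boxes, CAAATG at 239 and 214 bases before the start, CAACTG at 191 and CAATTG at 100, and no CACGTG. Of all promoters searched, 27.4% held at least 2 E-boxes, and the share with 4 or more was not counted.

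Within the cysteine-rich LIM family, Csrp3 took 26.8% of the transcripts per kilobase in WT on day 5, 8.80% in Per1KO and 6.55% in Per2KO. Csrp2, its paralogue of smooth muscle and developing tissue, moved in the same direction. It was lower by a log2 fold change of -1.71 ± 0.42 in Per1KO (adjusted p = 0.0285) and -1.79 ± 0.42 in Per2KO (adjusted p = 0.0233). Between days 0 and 5 Csrp2 went from 64.9 to 101 CPM in WT, from 56.3 to 18.1 in Per1KO and from 48.7 to 19.3 in Per2KO. The interaction term was -2.01 ± 0.20 (adjusted p = 0.00684). Csrp1, which most cells express, was not called in either knockout (adjusted p = 0.0530 and 0.0864).

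Des, the desmin gene, was the most abundant member in every library, at 0.134% to 0.413% of all counts. It lies on chromosome 1, at 75360329 to 75368579 on the plus strand. WT held 2452, 4340 and 3594 CPM on days 0, 3 and 5. Per1KO held 1602, 2658 and 4111 CPM and Per2KO 1245, 2662 and 3848 CPM. WT was highest on days 0 and 3 and lowest on day 5, the 1 member for which both knockouts ended above WT. Per1KO over WT on day 5 was 1.14 (1.13 to 1.16) and Per2KO over WT 1.07 (1.05 to 1.09). WT fell to 0.828 of its day 3 level by day 5 (0.812 to 0.845), while Per1KO rose 1.55-fold and Per2KO 1.45-fold. The summed smooth muscle markers moved the same way between days 3 and 5, from 3451 to 1794 CPM in WT, from 3537 to 4358 in Per1KO and from 3291 to 3932 in Per2KO. Most of that sum was Acta2, an actin that differentiating myoblasts also make, at 3270 and 1631 CPM in WT. Of the other markers, Myh11, the smooth muscle myosin, was at 0 to 0.220 CPM and Cnn1, calponin, at 0 to 1.30 CPM over the 9 libraries. The remaining marker, Smtn, was expressed highly enough to be tested. It was called lower in both knockouts, at -0.79 ± 0.11 in Per1KO (adjusted p = 0.00217) and -0.92 ± 0.11 in Per2KO (adjusted p = 0.00110). For Des, neither knockout was called different from WT over the 3 days, at -0.40 ± 0.22 (adjusted p = 0.238) and -0.55 ± 0.22 (adjusted p = 0.120). On day 5 Des was higher than on day 0 by 1.20 ± 0.22 on the log2 scale (adjusted p = 0.00345). The day 5 call was lost without Per1KO (0.0596) and without Per2KO (0.0656), and so was the day 3 call (0.130 and 0.164). The exons of an antisense gene, Gm15179, overlap those of Des, and whether strand was used in counting is not given in the sources used here.

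Desmin is set beside vimentin, the intermediate filament of myoblasts, which it joins during differentiation. Vim fell from day 0 to day 5 by 1.11 ± 0.15 on the log2 scale (adjusted p = 7.35e-04) and was not called in either knockout (adjusted p = 0.960 and 0.825). Desmin made up 22.6% of the summed desmin and vimentin mRNA per kilobase in WT on day 0, 16.2% in Per1KO and 15.6% in Per2KO. On day 3 the shares were 47.0%, 35.6% and 35.4%. On day 5 they were 51.3%, 53.2% and 50.3%, so the populations that had differed on day 3 lay within a few percentage points of each other.

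The upstream bases of Des are shown for the member that reached WT levels in both knockouts. They are chr1:75360042-75360261, plus strand, with E-boxes in capitals.
Des: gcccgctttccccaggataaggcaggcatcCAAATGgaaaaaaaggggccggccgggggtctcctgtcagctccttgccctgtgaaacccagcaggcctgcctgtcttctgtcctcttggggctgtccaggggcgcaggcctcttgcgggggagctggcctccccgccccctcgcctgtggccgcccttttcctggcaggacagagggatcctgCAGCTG
The stretch holds CAAATG at 220 bases before the start and CAGCTG at 36. Of the 10 genes, 6 had an entry in the RefSeq promoter table (Actn2, Myoz2, Ldb3, Des, Pdlim3 and Csrp3). In this window Myoz2 and Ldb3 held none of the motifs searched, and none of the 6 held a MEF2 site or a CArG box, the elements bound by MEF2 and serum response factor, which 2.60% and 1.30% of all promoters held.

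**Figure D3:**
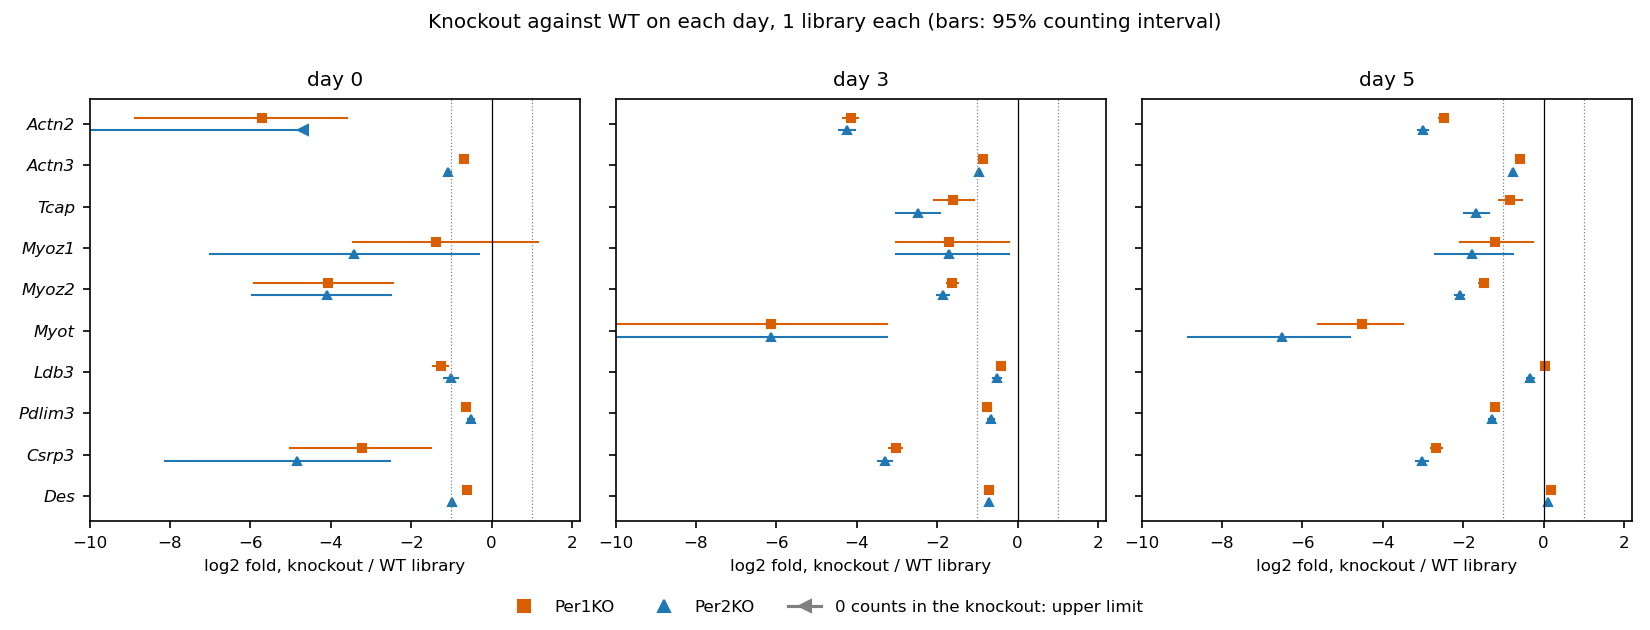
Log2 fold of each knockout library over the WT library of the same day for the 10 genes, 1 panel per day, with 95% counting intervals (no interval covers variation between cultures; intervals run past the left edge for Myot on day 3); dotted lines mark 2-fold, and a triangle pointing left marks a limit where the knockout had 0 counts. Actn2, Csrp3 and Myoz2 lie left of the 2-fold line on every day, and Des of both knockouts and Ldb3 of Per1KO reach or pass 0 on day 5.

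Day by day, single libraries were compared without a test, over the members with at least 1 CPM in either library. On day 0, 4 of 7 measured members were at least 2-fold lower in Per1KO (8.65% of all measured genes) and 5 of 7 in Per2KO (9.32%). On day 3, the same 6 of 10 were lower in each knockout (9.26% and 10.0% of all genes). On day 5, 6 of 10 were lower in Per1KO (11.5%) and 7 of 10 in Per2KO (11.5%). Some members reached 1 CPM in WT alone and so had to lie lower in a knockout: Actn2, Myoz2 and Csrp3 on day 0, Myoz1 and Myot on day 3, and on day 5 Myot in both knockouts and Myoz1 in Per2KO. The counts are therefore a description and support nothing. Actn2, Myoz2 and Csrp3 were at least 2-fold lower in every comparison. No member was 2-fold higher on any day. Tcap was below the line in both knockouts on day 3 and in Per2KO alone on day 5, and Pdlim3 passed it only on day 5, in both.

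Between the Per1KO and Per2KO populations no member was called by edgeR (0% of all genes, with 88 genes and 1 member, Tcap, at an unadjusted p under 0.05), and none by DESeq2. Tcap had the largest difference of the 9, 0.85 ± 0.26 on the log2 scale higher in Per1KO (unadjusted p = 0.0184, adjusted p = 0.9996). Its ratio of Per1KO to Per2KO was 1.84 on day 3 (1.38 to 2.47) and 1.797 on day 5 (1.57 to 2.05). On day 5 each of the 10 members was higher in Per1KO, from 1.07-fold for Des and Pdlim3 to 1.52-fold for Myoz2, 1.797-fold for Tcap and 3.95-fold for Myot (1.06 to 21.8). The interval of Myoz1 included 1 (1.47-fold, 0.949 to 2.29). Over all 13047 genes measured on that day the median log2 difference was 0.01, and the share of them higher in Per1KO was not counted. This compares 1 library with 1 other, so the members are not separate results. No member differed 2-fold among those measured at 1 CPM or more.

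Set in order of level per kilobase of transcript, Des led on day 5 in every population, followed by Actn3. In WT the order went on with Pdlim3 at 120, Myoz2 at 77.7, Csrp3 at 68.2, Actn2 at 65.1 and Ldb3 at 57.2 CPM per kilobase, then Tcap at 28.5, Myot at 2.98 and Myoz1 at 2.38. In Per1KO it went Ldb3 at 58.6, Pdlim3 at 52.1, Myoz2 at 27.8, Tcap at 16.1, Actn2 at 11.6 and Csrp3 at 10.7, then Myoz1 at 1.02 and Myot at 0.130. In Per2KO it went Pdlim3 at 48.9, Ldb3 at 45.4, Myoz2 at 18.2, Tcap at 8.95, Csrp3 at 8.42 and Actn2 at 8.15, then Myoz1 at 0.698 and Myot at 0.0330. Actn2 and Csrp3, which stood above Ldb3 and Tcap in WT, stood below both in the knockouts. With the length of all exons instead, only the neighbours Myoz2 and Csrp3 (WT), Actn2 and Csrp3 (Per1KO), and Ldb3 and Pdlim3 (Per2KO) changed places. The counting intervals of Csrp3 and Actn2 overlapped in every population, with that of Tcap also in Per2KO, as did those of Myot and Myoz1 and of Myoz2 and Csrp3 in WT.

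Other proteins of the Z-disc mostly rose with differentiation too. Of 30 partners and regulators 28 were tested, and 21 were higher and 2 lower on day 5 than on day 0, where 23.2% of all genes were higher and 22.9% lower. In Per1KO 9 were lower and 1 higher, and in Per2KO 12 were lower and 1 higher, with median log2 fold changes of -0.38 and -0.70. Over all genes 10.1% and 10.6% were lower and 9.26% and 9.31% higher. The strongest fall in both was that of Mypn, myopalladin, which links nebulin to alpha-actinin, with log2 fold changes of -2.81 ± 0.44 in Per1KO (adjusted p = 0.00428) and -3.21 ± 0.44 in Per2KO (adjusted p = 0.00219). Mypn stood at 56.0 CPM in WT on day 5, 6.02 in Per1KO and 4.94 in Per2KO. The only riser was Fhl2, a LIM-domain cofactor, at 0.78 ± 0.21 in Per1KO (adjusted p = 0.0347) and 0.98 ± 0.21 in Per2KO (adjusted p = 0.0143). Smpx, the small muscle protein with the largest rise over time, reached 99.5 CPM in WT on day 5, 165 in Per1KO and 107 in Per2KO. Fhl3 fell with time, by 1.30 ± 0.14 on the log2 scale (adjusted p = 2.52e-04).

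The 15 intermediate filament genes and desmin chaperones were all tested, and 10 were higher and 2 lower on day 5 than on day 0 (23.2% and 22.9% of all genes). In each knockout 4 were lower, Hspb2, Hspb3, Hspb7 and Dnajb6, and 1 was higher, Dst, the plakin dystonin, against 10.1% and 10.6% of all genes lower and 9.26% and 9.31% higher. The small heat-shock gene Hspb3 fell most, with log2 fold changes of -2.86 ± 0.36 in Per1KO (adjusted p = 0.00154) and -3.08 ± 0.37 in Per2KO (adjusted p = 0.00123). Dst was higher by 0.86 ± 0.23 (adjusted p = 0.0380) and 1.03 ± 0.23 (adjusted p = 0.0185). Hspb7, another small heat-shock gene of muscle, had the largest rise over time, 7.91 ± 0.19 (adjusted p = 2.60e-06), and stood at 184 CPM in WT on day 5, 39.7 in Per1KO and 27.7 in Per2KO. Of 9 paralogues expressed outside striated muscle, Csrp2 and Pdlim4 were lower in each knockout and none was higher, a share to be read against the same percentages. Over time Pdlim2 rose by 0.91 ± 0.27 (adjusted p = 0.0270) and Csrp1 fell by 0.89 ± 0.13 (adjusted p = 0.00131) on the log2 scale.

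**Figure D4:**
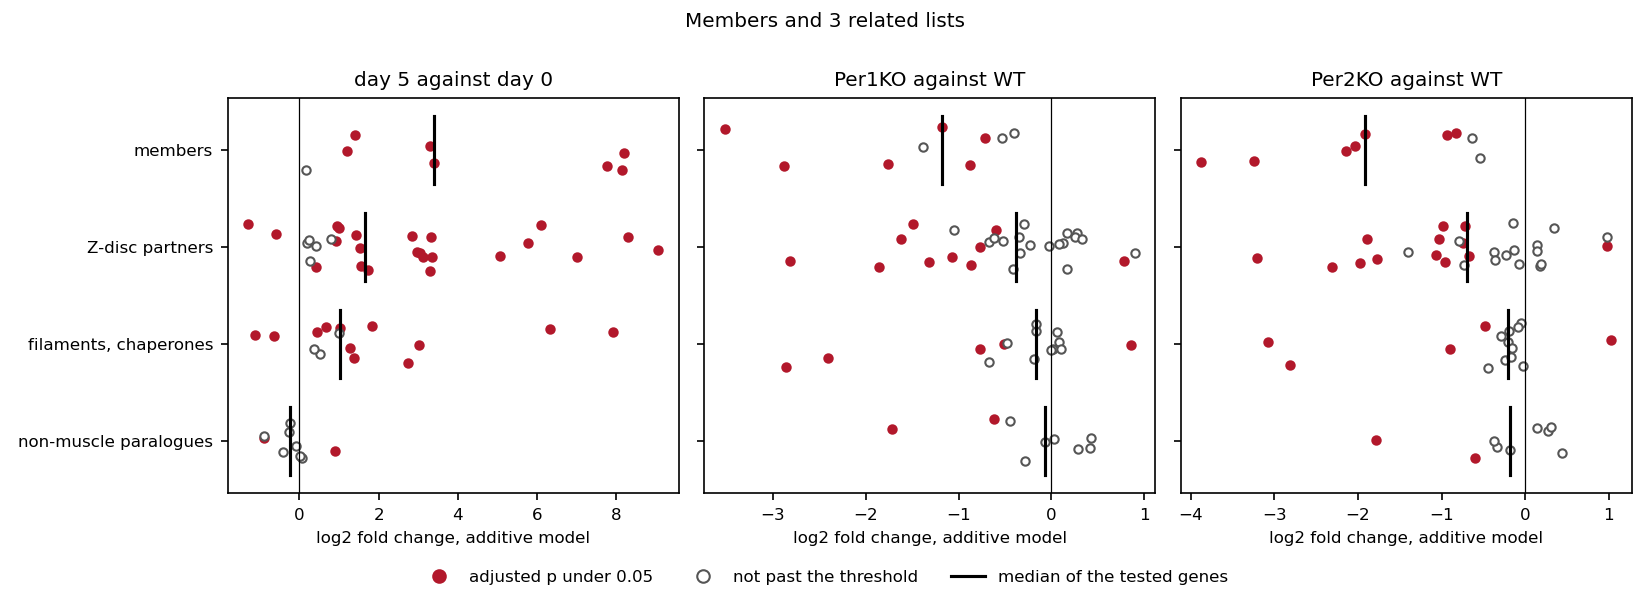
Log2 fold changes of the additive model for the 9 tested members and 3 related lists, for day 5 against day 0 and each knockout against WT; filled points passed an adjusted p of 0.05, black bars are medians, and Tcap, at 0 in every day 0 library, is counted in the median but not drawn in the first panel. The members' medians of 3.41, -1.18 and -1.92 lie further from 0 than those of the other lists.

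Over the 9 libraries, 8 of the tested members followed their common profile with a Pearson r of 0.933 to 0.998, and Pdlim3 with 0.571, as a description of libraries that share genotype and day. Each member is itself part of the mean that makes up the common profile, which raises its r. Among 9201 other protein-coding genes averaging 10 CPM or more, the 5 most like that profile were Casz1 (r = 0.998), which encodes a zinc-finger transcription factor, Prkaca (0.997), a catalytic subunit of protein kinase A, the growth factor gene Tgfb3 (0.997), the exoribonuclease gene Dis3l2 (0.996) and Fgf11 (0.995).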

How the data were processed

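Poly(A)-selected single-read RNA-seq counts per Ensembl gene were used as deposited by the authors; HISAT2 2.1.0, CASAVA 1.8 and build mm10 are listed, per the submitters' processing notes. The counting program, annotation and use of strand are not given in the sources used here. Symbols matched 47224 of 47729 genes, and positions and transcript lengths come from GENCODE M21 (GRCm38), which is mm10; promoters come from RefSeq on GRCm38.p6.

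Genes with at least 1 CPM in 3 libraries (13324) were tested with edgeR 4.0.16 (quasi-likelihood, robust, TMM, limma 3.58.1, R 4.3.3), with Benjamini-Hochberg adjustment over all of them and a threshold of 0.05. Every adjusted p in the text is from it unless DESeq2 (1.42.0) is named. Genotype and day were additive, so the other days serve in place of replicates (4 residual degrees of freedom), and 1 interaction of knockout with days 3 and 5 was added for the response (3 degrees). The spread behind each p-value is therefore the departure of the libraries from the fitted genotype and day effects. It does not measure spread between repeat cultures of a population or between separate clones. Errors after ± are SEs derived from the test, as the absolute log2 fold change divided by the square root of the quasi-likelihood F statistic. Single libraries were compared without a test (prior count 2); their 95% intervals (Clopper-Pearson for levels, exact conditional binomial for ratios) and the floor of 3 counts cover counting error only. The tests were also run on simulated counts with set changes in Per1KO and no effect of day. That run cannot vouch for calls made without replicates. All 10 members were named, and from each related list the largest called rise and fall per contrast. The members and lists were chosen with earlier results of these data known.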

Additional observations from a re-analysis of the deposited data

Results flagged for a closer look

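The response of Myoz2 to differentiation differed between the knockouts and WT, with an interaction of 2.28 on the log2 scale (adjusted p = 0.0437, edgeR). The call was lost without Per1KO (0.148), without Per2KO (0.115), without day 3 (0.0668) and with a separate term for each knockout (0.574 and 0.570), and it rests on 12, 5 and 5 counts on day 0. Des moved in opposite directions between days 3 and 5, since WT on day 5 stood at 0.828 of its day 3 level and both knockouts rose (1.55-fold and 1.45-fold). Pdlim3 did the reverse, with a WT day 5 level 1.23 times that of day 3 while Per1KO stood at 0.904 and Per2KO at 0.789. The differences between populations in Des and Pdlim3 rest on 1 library each and were not tested.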

How the results depend on the processing

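Libraries could not be paired by replicate, because each genotype and day has 1 library and the labels give no replicate numbers. The additive fit does compare genotypes within days. Of 511 values for single members under alternative scalings, filters, tools and subsets of libraries, 458 kept their direction and side of the threshold, 37 lost their call, 9 gained one and 7 changed sign. The 7 were all small and not called: Ldb3 between the knockouts (-0.060 without day 5, up to 0.24 without day 0), Pdlim3 on day 5 against day 0 (-0.071 without WT, up to 0.32 without Per2KO) and against day 3 (0.080 without Per2KO, down to -0.24 without WT), and, in the interaction, Actn3 (-0.044 without Per2KO, -0.038 without day 5 and -0.036 with a separate Per1KO term, up to 0.21 without Per1KO) and Myoz1 (-0.043 without Per2KO, up to 1.54 without Per1KO). The cause was not tested.

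With only the 6 libraries of a comparison, the genes called fell from 2575 to 1391 for Per1KO against WT, from 2652 to 1263 for Per2KO against WT and from 4664 to 3105 for day 3 against day 0, and rose from 238 to 579 for day 5 against day 3, where 5 members in place of 2 were called. Without a filter 358 genes were called for day 5 against day 3 and 1 between the knockouts in place of 0. DESeq2 called 733, 1 and, for the interaction, 1464 in place of 659. A separate interaction term for each knockout called 0 genes and 0 members for Per1KO and 0 and 0 for Per2KO.

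Leaving out 1 day gave 780 to 2814 genes and 1 to 6 members for Per1KO against WT, and 855 to 3138 genes and 2 to 7 members for Per2KO against WT. Leaving out 1 population gave 1147 to 7684 genes and 6 to 8 members for day 3 against day 0, 2348 to 8586 and 7 to 8 for day 5 against day 0, and 0 to 1393 and 0 to 6 for day 5 against day 3. The interaction ranged from 219 to 1797 genes and 0 to 1 members. These fits have fewer libraries and residual degrees of freedom. The counts of members past 2-fold in single library pairs moved by at most 1. Depth limits the WT values of Myot and Myoz1, and those of Actn2, Myoz2, Csrp3 and Tcap on day 0.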
